A study of Mus musculus with 7 samples.

Results

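Hox genes encode homeodomain transcription factors that give cells along the body axis their positional identity. Here their expression was followed in mouse fetal gonads and newborn ovaries. The members were all rows of the deposited gene list whose symbol is Hoxa, Hoxb, Hoxc or Hoxd followed by a number. They came to 40 of 31053 rows and to 39 gene symbols, because Hoxd4 had 2 rows with different Ensembl identifiers. Gonads of wild-type C57BL/6J mice were dissociated with trypsin, and single-cell RNA was captured before birth at E11.5 and E12.5, then every other day from E14.5 to E18.5, and after birth at P1 and P5, with 1 library at each age. The gonads of each library were pooled, and trypsin treatment rose with age from 20 min at E11.5 to 80 min at P5, so that age, library and dissociation cannot be told apart. Each cell with at least 200 detected genes was placed in a class by unique molecular identifiers (UMIs, which count captured molecules) of a few genes outside the Hox clusters. Upk3b marked ovarian surface epithelium, Wnt6 together with Kitl marked pregranulosa cells, at least 2 UMIs of Nr2f2 marked mesenchyme, Dazl together with Ddx4 marked germ cells, and Cdh5 marked endothelium.

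In mammals the Hox genes lie in 4 clusters, HoxA to HoxD, and are numbered 1 to 13 by paralogue group. Low-numbered genes are switched on early and towards the head, and high-numbered ones late and towards the tail. Their proteins bind DNA with TALE-class partners of the Pbx, Meis and Pknox families, and Polycomb and Trithorax complexes hold the clusters silent or active. HoxA and HoxD genes numbered 9 to 13 are best known in this region of the body for patterning the urogenital tract.

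The classes held 10992 mesenchymal, 10921 pregranulosa, 3782 germ, 979 epithelial and 401 endothelial cells. The 50823 cells kept carried 492138529 UMIs, and the median per cell ranged over the libraries from 6349 UMIs at E14.5 to 11060 at E12.5. In all, 18545 cells met no gate and 5203 met the gates of 2 or more classes, and both kinds were left out. The epithelial gate was met together with that of mesenchyme by 1686 cells and with that of pregranulosa cells by 1615. These exceed the 979 epithelial cells kept. The epithelial class is thus only the part of Upk3b-positive cells that met no other gate. Marker lists without the gate genes were highest in the class they name in every library, except that at E11.5 the mesenchymal list was higher in the epithelial class (1612 CPM) than in mesenchyme (916 CPM), as summed CPM (UMIs of a gene per 1000000 UMIs of the class). The 6 mesenchymal markers summed to 916 to 7465 CPM in mesenchyme and 57.7 to 383 CPM in pregranulosa cells. The epithelial class was the least pure: it carried 416 to 5281 CPM of the mesenchymal markers and 917 to 73562 CPM of 6 erythroid genes, which were also at 952 to 52006 CPM in endothelium and at 2363 to 10236 CPM in mesenchyme. It held only 43 cells at E18.5. Only 14 endothelial cells were found at E12.5 and 9 germ cells at E11.5, and these entered no test. Any 2 libraries shared at most 1.65% of the smaller one's barcodes. Pairs with the E16.5 library shared only 0 to 3 barcodes, while all other pairs shared 22 to 136. That library was also the deepest, with 124390521 UMIs. What set its barcodes apart, and any part of it in the E16.5 values, was not tested. UMIs of Y-linked genes were found in 28.4% of cells at E11.5, in 7.10% at E12.5 and in at most 0.158% of cells later. The 2 youngest libraries thus held cells with Y-linked transcripts, and their values cannot be read as those of ovarian cells alone.

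The genes follow each other closely on the genome (GRCm38, the build of the count reference, with GENCODE coordinates). HoxD, from Hoxd13 to Hoxd1, spans chr2:74668310-74765142 on the plus strand. HoxA lies at chr6:52155590-52260880 on the minus strand, HoxB at chr11:96194316-96368256 and HoxC at chr15:102921103-103036852, both on the plus strand. Some same-strand exons overlap, and reads there cannot be assigned. Such overlap was found for 6 of the 39 rows with an annotation, and covered 62.3% of the exonic bases of Hoxd3 and 52.3% of those of 1 Hoxd4 row. The last 500 exonic bases, where tags of a 3′ library fall, were free of it except in Hoxd4, where 4.40% was shared. Counts were 1 per captured 3′ end, so levels were not divided by gene length, although capture may differ between genes.

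RefSeq promoter windows, from 250 bases before to 50 after a start site, were found for 22 of the 39 symbols, 24 windows in all. Of the 24, 20 held more CpG dinucleotides than the median of 7 over all windows (83.3%, against 48.6% of all 32851), with a range of 4 to 45, and Hoxd8 was one of the 4 that held fewer. The windows of Hoxd8, Hoxd9 and Hoxa13 are shown because the germ-cell results turn on these genes. In germ cells at E16.5 Hoxd8 was at 25.3 CPM, Hoxa13 at 3.88 CPM and Hoxd9, the neighbour of Hoxd8, at 1.08 CPM. Hoxd9 reached 3.39 CPM in germ cells at P1, so Hoxd9 and Hoxa13 had similar highest levels there. CG dinucleotides are in capitals (GRCm38.p6; Hoxd8 at chr2:74704365-74704664 and Hoxd9 at chr2:74697513-74697812 on the plus strand, Hoxa13 at chr6:52260831-52261130 on the minus strand).
Hoxd8: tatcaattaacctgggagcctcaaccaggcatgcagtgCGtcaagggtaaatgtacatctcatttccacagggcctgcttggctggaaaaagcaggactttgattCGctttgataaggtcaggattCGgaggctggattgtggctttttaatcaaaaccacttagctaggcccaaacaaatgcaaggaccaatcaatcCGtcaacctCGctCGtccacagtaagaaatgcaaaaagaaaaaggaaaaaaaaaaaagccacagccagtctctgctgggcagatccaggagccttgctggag
Hoxd9: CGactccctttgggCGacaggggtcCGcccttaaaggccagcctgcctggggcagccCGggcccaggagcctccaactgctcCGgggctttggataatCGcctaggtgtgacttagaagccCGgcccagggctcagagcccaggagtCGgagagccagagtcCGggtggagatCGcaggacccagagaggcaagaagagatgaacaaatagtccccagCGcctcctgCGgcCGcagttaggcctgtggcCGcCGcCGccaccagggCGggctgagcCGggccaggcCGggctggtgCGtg
Hoxa13: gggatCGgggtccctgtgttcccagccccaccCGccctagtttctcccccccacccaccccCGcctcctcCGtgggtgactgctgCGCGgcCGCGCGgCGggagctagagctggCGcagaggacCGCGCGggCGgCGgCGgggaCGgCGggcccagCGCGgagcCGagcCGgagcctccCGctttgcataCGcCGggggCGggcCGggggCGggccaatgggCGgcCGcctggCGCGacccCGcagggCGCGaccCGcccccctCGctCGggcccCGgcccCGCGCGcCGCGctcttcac
The windows held 6, 20 and 45 CG dinucleotides in that order. Among the 24 Hox windows, 5 held TTTATG, the core motif of the Cdx factors, on either strand (20.8%, against 11.9% of all windows), and 2 held the Hox-Pbx motif TGATTNAT (8.33%, against 3.22%). The GATA motif AGATAA was in 0 of 24 Hox windows and in 11.2% of all. The Hoxa7 window (chr6:52218524-52218823, minus strand) and the Hoxb8 window (chr11:96281655-96281954, plus strand) each held the Cdx motif at 2 places, in capitals, and are shown as examples of a gene that fell with age in mesenchyme. It was also in windows of Hoxd4 (2 places), Hoxd11 and Hoxd3, which were not among the genes that fell, and was not in those of Hoxa5, Hoxa9 and Hoxa10, which were.
Hoxa7: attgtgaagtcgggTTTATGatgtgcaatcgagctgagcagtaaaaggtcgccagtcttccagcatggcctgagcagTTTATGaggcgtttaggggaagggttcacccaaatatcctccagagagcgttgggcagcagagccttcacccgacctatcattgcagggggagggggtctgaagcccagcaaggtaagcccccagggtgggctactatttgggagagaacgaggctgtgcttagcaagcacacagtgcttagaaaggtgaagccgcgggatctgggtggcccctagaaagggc
Hoxb8: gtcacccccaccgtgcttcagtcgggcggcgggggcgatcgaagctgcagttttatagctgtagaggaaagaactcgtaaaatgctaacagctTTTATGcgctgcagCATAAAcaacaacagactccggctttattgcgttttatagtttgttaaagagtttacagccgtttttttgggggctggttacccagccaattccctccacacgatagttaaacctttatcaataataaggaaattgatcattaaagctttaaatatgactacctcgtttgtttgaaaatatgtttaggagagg
A motif match describes the sequence of the window and no more.

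Summed over the 40 rows, Hox genes were highest in mesenchyme in 6 of the 7 libraries and lowest in germ cells in all 7. In mesenchyme the sum was 1205 CPM in the E11.5 library (95% Poisson interval 1196 to 1215, which covers counting error only) and 853 CPM in the E12.5 library, followed by 373, 455, 341, 404 and 396 CPM in the 5 libraries from E14.5 to P5. The 2 youngest libraries thus stood above the others, which spread little. In pregranulosa cells it was 392 CPM at E11.5, 205 at E12.5 and between 146 and 168 CPM at the 5 later ages. The E11.5 value comes from 141 cells. The paper considers Wnt6-positive cells of that age likely to be bipotential precursors, which can become Sertoli or pregranulosa cells. The class name thus fits them only loosely. Mesenchyme lay above pregranulosa cells in each of the 7 libraries. The epithelial class started near mesenchyme, at 893 CPM at E11.5, 607 at E12.5 and 422 at E14.5, and was at 308, 92.1, 215 and 259 CPM at the 4 later ages. The E18.5 value rests on 58 UMIs (interval 69.9 to 119 CPM). Endothelium was between 225 CPM at P5 and 361 CPM at E16.5. Germ cells, leaving out the 9 cells of E11.5, had 8.95 and 11.1 CPM in the E12.5 and E14.5 libraries, 55.3 and 51.4 CPM in those of E16.5 and E18.5, 33.9 CPM at P1 and 9.87 CPM at P5.

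**Figure D1:**
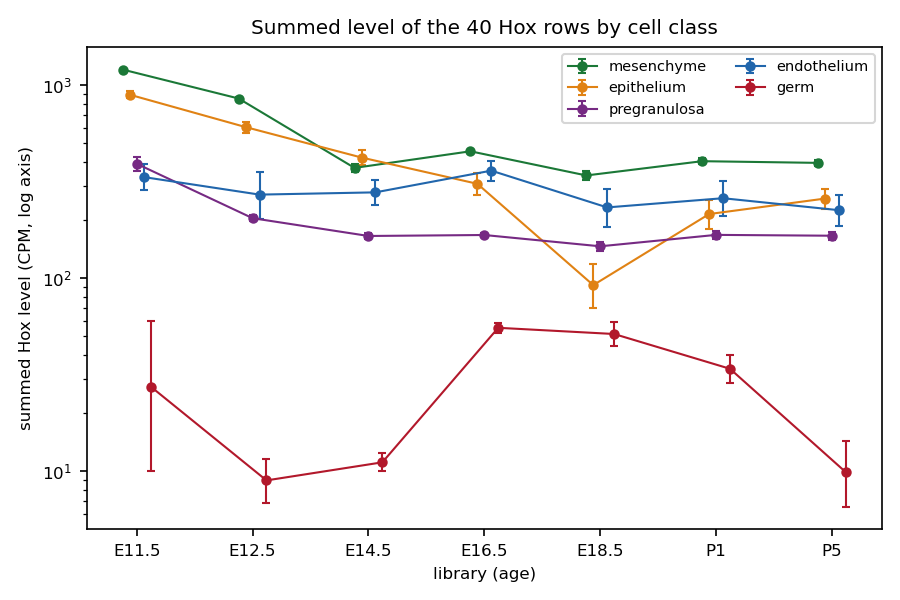
Summed level of the 40 Hox rows (CPM, log axis) in each class against the age of the library; bars are 95% Poisson intervals. Mesenchyme was at 1205 CPM at E11.5 and 373 CPM at E14.5, and germ cells were highest, at 55.3 CPM, at E16.5; the germ-cell point at E11.5 rests on 9 cells.

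UMIs of several members were found in a typical mesenchymal cell at the youngest ages. At E11.5 such a cell carried a median of 12 Hox UMIs from 7 members, and up to 26 members in 1 cell. The median was 5 members at E12.5 and 1 to 3 from E14.5 on. Between 79.9% and 98.8% of mesenchymal cells had a Hox UMI, against 58.0% to 84.4% of pregranulosa cells and, from E12.5 on, 12.4% to 58.9% of the more deeply sequenced germ cells (a median of 12379 to 59101 UMIs in germ cells and 5586 to 10658 in mesenchyme at these ages). Each cell with at least 2000 UMIs was then thinned to 2000, and shallower cells were left out. The shares were then 44.9% to 85.9% in mesenchyme, 25.0% to 46.4% in pregranulosa cells and, from E12.5 on, 1.96% to 10.6% in germ cells. At least 1 UMI was found for 38 of the 40 rows in mesenchyme. Hoxb13 and Hoxc12 had none there.

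The clusters contributed unequally, and the balance differed between classes. HoxC supplied the largest mean share of Hox UMIs in mesenchyme (41.8% ± 2.80, SD, n = 7 libraries), in pregranulosa cells (56.2%, range 34.3% to 70.8%) and in the epithelial class (46.9% ± 11.4). In the epithelial class it led only from E16.5 on. HoxB was at 300 and HoxC at 297 CPM there at E11.5. HoxD was at 250 and 216 CPM at E12.5 and E14.5, beside 212 and 162 CPM of HoxC. In endothelium HoxB led with 45.4% ± 6.89, and HoxC gave 6.14% to 26.9%. HoxA supplied 17.7% ± 7.44 in mesenchyme and 26.0% ± 10.0 in endothelium but 4.11% ± 5.66 in pregranulosa cells. From E14.5 on the whole HoxA cluster came to between 1.13 and 3.38 CPM in pregranulosa cells, against 40.8 to 62.8 CPM in mesenchyme of the same libraries. In mesenchyme the clusters also differed with age. HoxA had 346 CPM at E11.5 and 43.1 CPM at P5, whereas HoxD had 93.1 CPM at E11.5 and 124 CPM at P5. The HoxD share there ranged from 7.72% at E11.5 to 38.4% at E18.5.

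**Figure D2:**
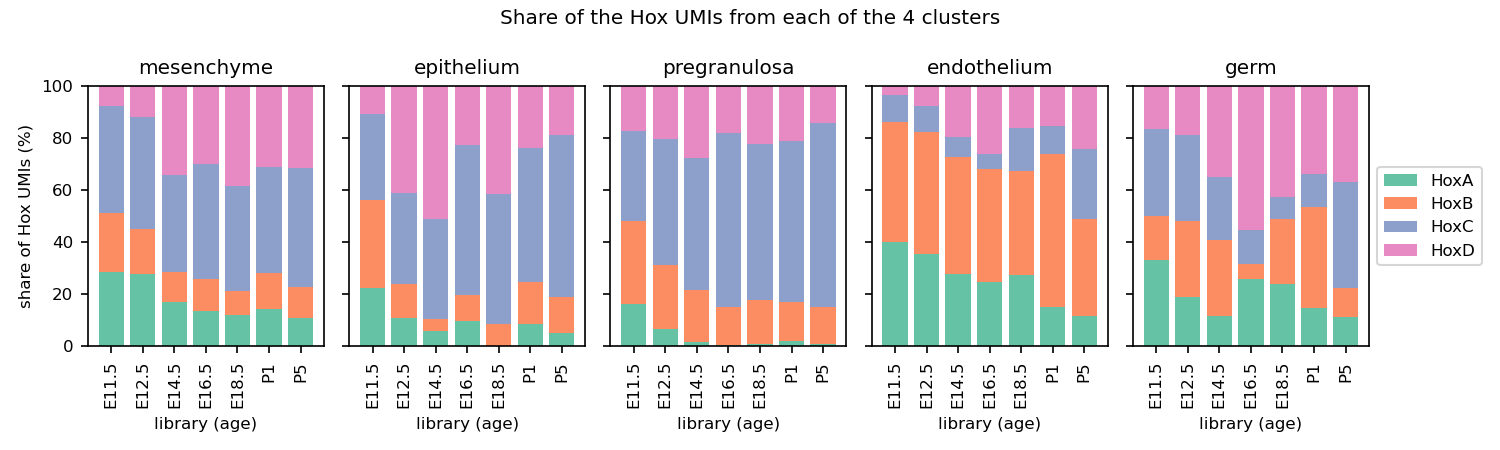
Share of Hox UMIs (%) from each cluster, by class and by library age; stacked bars sum to 100. HoxA is a thin band in pregranulosa cells (mean 4.11%) and HoxB the widest in endothelium (mean 45.4%). Germ cells at E11.5 (9 cells) and endothelium at E12.5 (14 cells) rest on few UMIs.

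By paralogue number, groups 8 to 10 had the highest mean level in mesenchyme and the last groups a low one. Group 9 was at 102 to 261 CPM, group 8 at 63.1 to 171 CPM, group 10 at 42.0 to 67.3 CPM from E12.5 on but 262 CPM at E11.5, and group 1 at 0.377 to 9.86 CPM. Group 6 was at 33.9 to 96.4 CPM and was above group 10 at E12.5, E16.5, P1 and P5. The higher mean of group 10 thus rests on the E11.5 library. Groups 12 and 13 were at 2.64 and 1.39 CPM at E11.5 and at no more than 0.0722 CPM in mesenchyme later. The leading mesenchymal members of groups 2 to 13 were, in order, Hoxb2, Hoxb3, Hoxc4, Hoxa5, Hoxc6, Hoxa7, Hoxc8, Hoxd9, Hoxc10, Hoxd11, Hoxd12 and Hoxd13. Hoxc8, which patterns the thoracic spine, was the highest of all in mesenchyme, at 75.0 ± 40.7 CPM (mean ± SD, n = 7 libraries). Hoxd9 followed at 66.6 ± 14.2 CPM and Hoxc6 at 54.8 ± 18.0 CPM, differences that are within the spread over libraries. The same genes, Hoxc8, Hoxc6 and Hoxd9, were the 3 highest in pregranulosa cells and in the epithelial class. In endothelium the highest were Hoxb7 at 33.8 ± 17.7, Hoxb4 at 25.7 ± 10.6 and Hoxd9 at 23.9 ± 13.6 CPM.

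**Figure D3:**
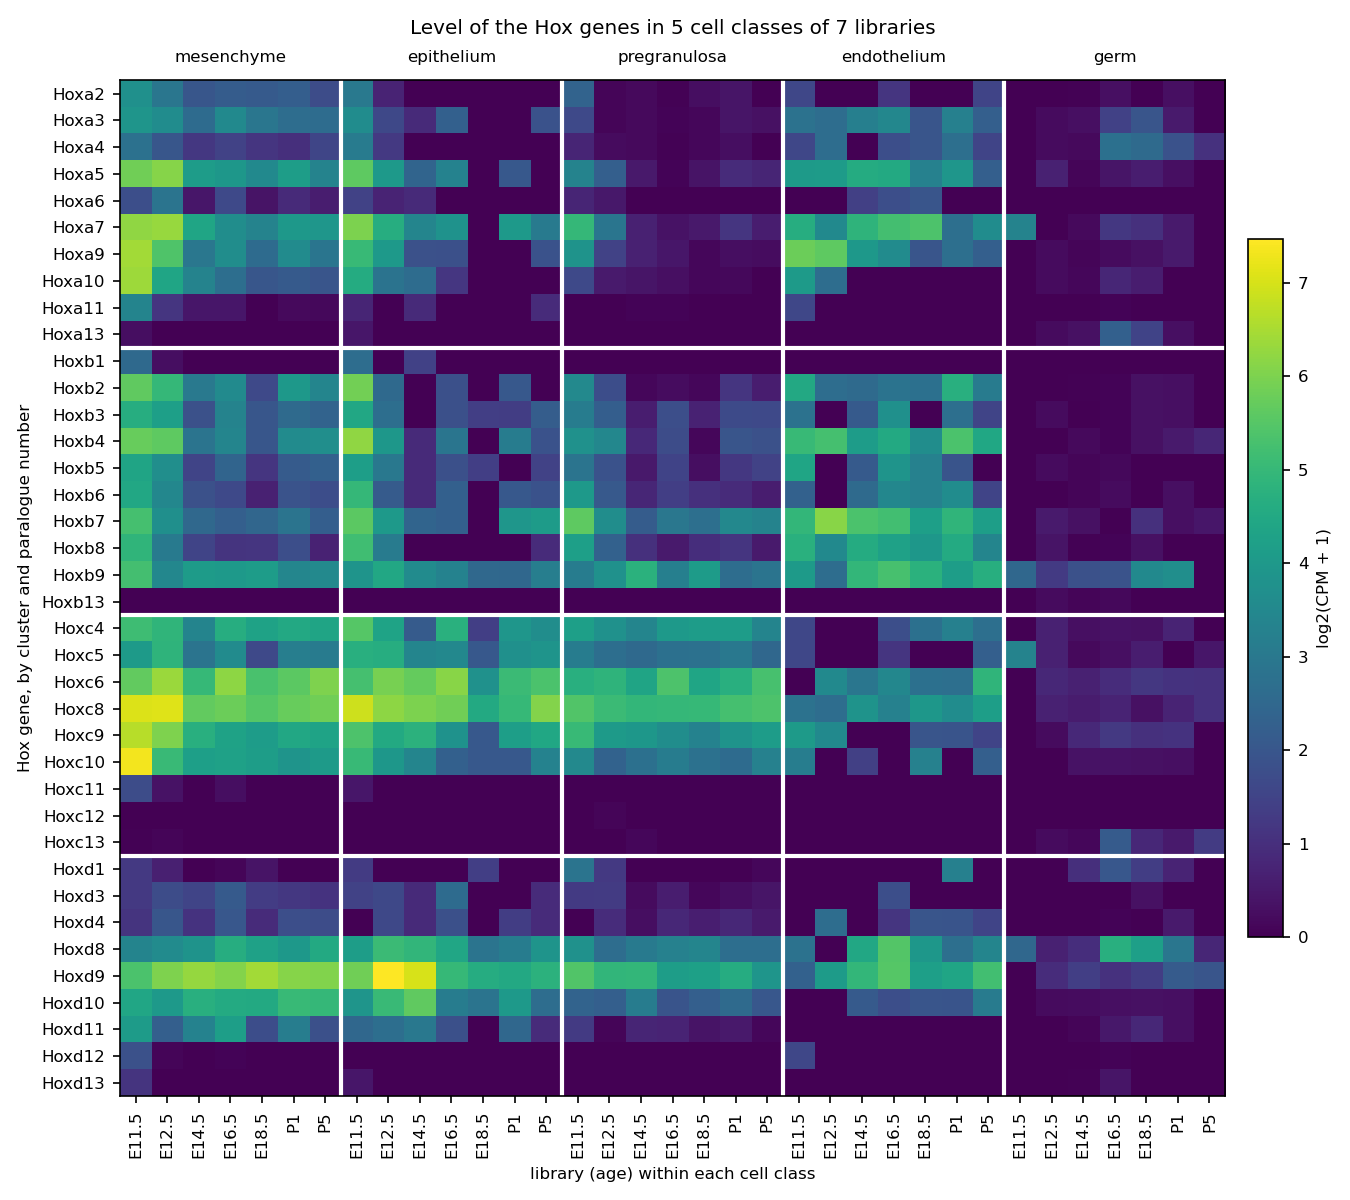
Level of the Hox genes as log2(CPM + 1), with genes in rows by cluster and paralogue number and libraries in columns by class and age; the 2 Hoxd4 rows are summed and 1 gene is not drawn. HoxA genes are dark in pregranulosa cells from E14.5 on, and groups 12 and 13 are dark in the 4 somatic classes after E11.5.

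The comparison of mesenchyme with pregranulosa cells asked how Hox expression differs between these 2 gated classes of the same libraries. At E11.5, 3702 of the 4080 mesenchymal cells had no UMI of Gata4, a factor of the gonadal soma. UMIs were summed per class and library and tested with edgeR's quasi-likelihood test with the library as a block, and p-values were adjusted by Benjamini-Hochberg over all genes tested. Low counts were removed first, which left 26 of the 40 rows. In mesenchyme 23 were higher and 0 lower, beside 26.6% and 26.9% of all genes. By edgeR at an unadjusted p under 0.05, and by DESeq2, 0 were lower too. The median difference of the 26 rows was 1.90 on the log2 scale, beside -0.01 over all genes. A passing row could be one that is high in mesenchyme alone, so these figures do not describe all members.

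The largest differences were in HoxA. Hoxa3 differed by 5.35 ± 0.50 (log2 fold change ± SE, adjusted p = 3.06e-05 by edgeR). It had a lowest, median and highest level over the libraries of 5.06, 6.65 and 13.9 CPM in mesenchyme and 0.0593, 0.130 and 2.10 CPM in pregranulosa cells. These ranges do not overlap. The pregranulosa values rest on few UMIs: 3 UMIs would be 2.10 CPM at E11.5 and 0.0890 CPM at E16.5. Hoxa10, which is needed for uterine identity, was higher by 5.06 ± 0.23 (adjusted p = 9.84e-07), with 2.94 to 82.0 CPM in mesenchyme and 0 to 2.10 CPM in pregranulosa cells. Hoxa5 (4.56 ± 0.45), Hoxa2 (4.41 ± 0.59), Hoxa9 (4.33 ± 0.34), Hoxa4 (4.06 ± 0.46) and Hoxa7 (3.90 ± 0.46) were also higher, which made 7 of 7 tested HoxA rows. Hoxa7 had 30.1 CPM in pregranulosa cells at E11.5, 6.44 at E12.5 and between 0.297 and 1.20 CPM later. Its E11.5 value thus lay within the range of mesenchyme over the libraries (9.06 to 78.3 CPM). Mesenchyme was at 73.4 CPM in the E11.5 library and at 78.3 CPM in that of E12.5.

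In HoxD 5 of 5 tested rows were higher in mesenchyme, and the difference was largest at the 5′ end of the cluster. Hoxd11 (4.24 ± 0.28) and Hoxd10 (2.60 ± 0.21) differed most of the 5′ genes, followed by Hoxd9 (1.61 ± 0.26) and Hoxd8 (1.19 ± 0.25), while Hoxd3 differed by 2.13 ± 0.46. In HoxC 5 of 6 were higher, but by less: Hoxc10 by 1.94 ± 0.33 and the 4 others by 0.73 to 1.09. Hoxc6 was at 30.9 to 80.1 CPM in mesenchyme and 19.7 to 40.9 CPM in pregranulosa cells. In HoxB 6 of 8 were higher, from Hoxb8 (0.94 ± 0.18) to Hoxb2 (4.14 ± 0.43). Hoxb7, Hoxb9 and Hoxc5 did not pass, with differences of -0.35 ± 0.19, 0.54 ± 0.31 and 0.81 ± 0.33. Without E11.5 and E12.5, the libraries with Y-linked UMIs, 22 of 25 rows were higher, all of them among the 23.

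**Figure D4:**
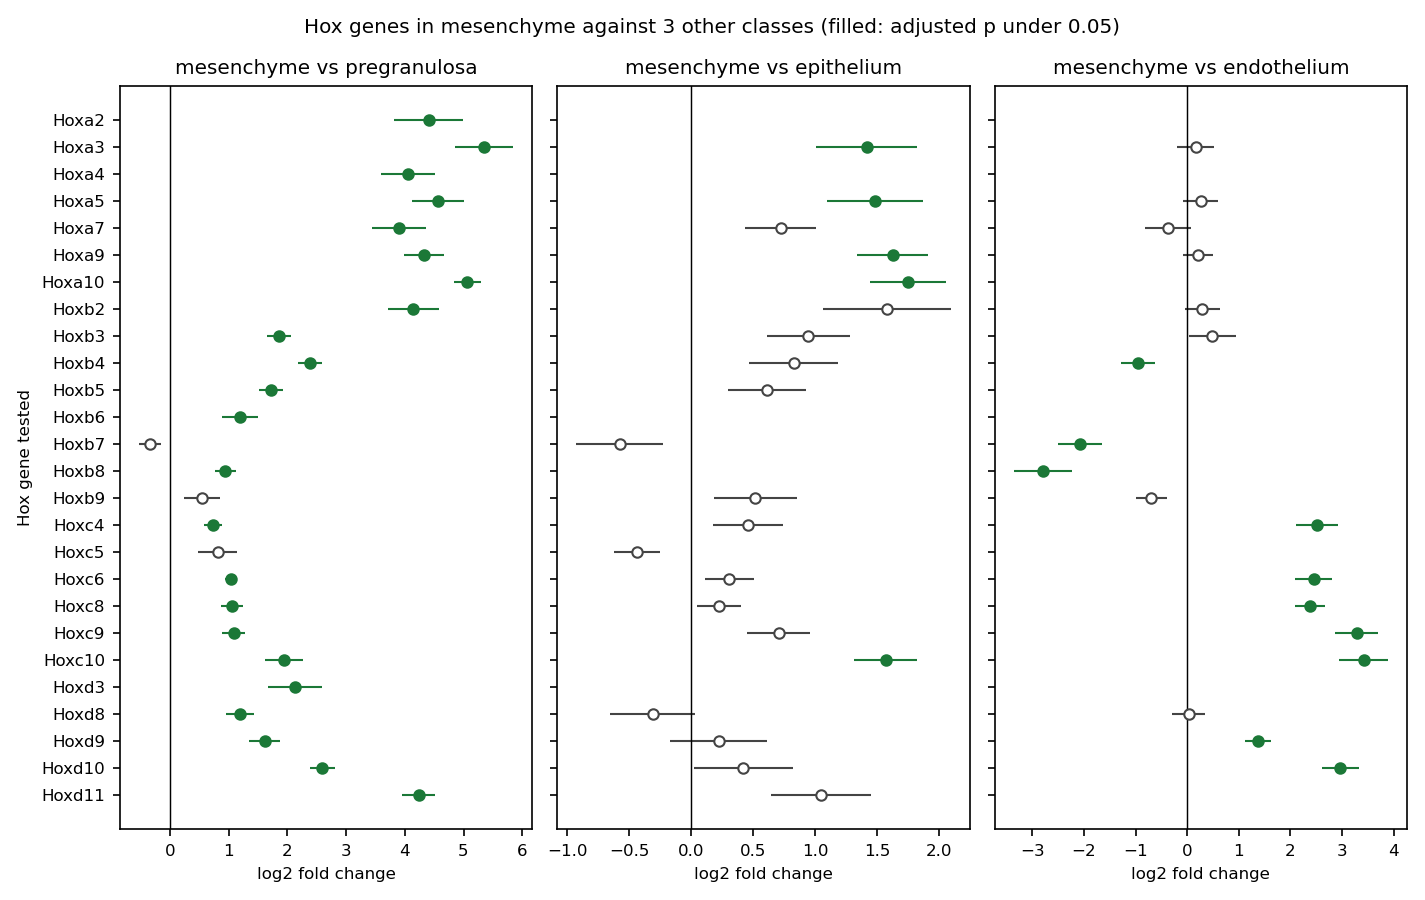
Log2 fold change of each tested Hox gene in mesenchyme against pregranulosa cells, the epithelial class and endothelium. Bars are 1 SE derived from the test statistic, each panel has its own axis, and filled points have an adjusted p under 0.05. HoxA genes lie between 3.90 and 5.35 in the first panel, and HoxC genes lie to the right and Hoxb4, Hoxb7 and Hoxb8 to the left in the last.

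Against the epithelial class mesenchyme differed less. Of 21 rows tested, 5 were higher and 0 lower in mesenchyme, beside 10.4% and 9.49% of all genes (at an unadjusted p under 0.05 by edgeR 1 row was lower, and by DESeq2 0). They were Hoxa10 (1.75 ± 0.31), Hoxa9 (1.62 ± 0.29), Hoxc10 (1.57 ± 0.25), Hoxa5 (1.48 ± 0.39) and Hoxa3 (1.42 ± 0.41). The adjusted p ranged from 0.00179 for Hoxc10 to 0.0334 for Hoxa3. Low counts had removed 19 rows, and a tested row could pass that filter through 1 class alone. The abundant Hoxc8 differed by 0.23 ± 0.18 and Hoxd9 by 0.22 ± 0.39, neither of which passed. Hoxa3 lost its call without E12.5, E14.5, E16.5, P1 or P5 (adjusted p 0.0556 to 0.0877) and Hoxa5 without E12.5, E14.5 or P1 (0.0552 to 0.0664), by edgeR. Without P1 the count was 3. Mesenchymal markers and erythroid genes were present in the epithelial class, as given above, and their part in these values was not tested.

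Pregranulosa cells were lower than the epithelial class in 7 of 12 tested rows and higher in 0, beside 11.9% and 10.7% of all genes (0 higher also at an unadjusted p under 0.05 by edgeR and by DESeq2). Hoxa7 was lower by 2.97 on the log2 scale (SE 0.54), Hoxd10 by 2.07 (SE 0.32), Hoxd8 by 1.39 (SE 0.34), Hoxc5 by 1.35 (SE 0.29), Hoxd9 by 1.29 (SE 0.31), Hoxc8 by 0.87 (SE 0.21) and Hoxc6 by 0.74 (SE 0.21). The other 28 rows were removed by the filter on low counts, and a tested row could pass it through the epithelial class alone. These counts thus do not describe all members. Hoxd9 had 21.8 to 175 CPM in the epithelial class and a median of 23.4 and at most 42.0 CPM in pregranulosa cells, ranges that overlap. Mesenchymal markers moved with this comparison: 6 of 6 were lower in pregranulosa cells, with a median log2 difference of -3.07, and their part in the Hox values was not tested. Without E14.5 the count was 4, of which 3 were among the 7, and without E11.5 and E12.5 together it was 2, Hoxd10 and Hoxd9. With 1 library left out at a time, Hoxc6 lost its call in 4 runs (adjusted p 0.0571 to 0.0921 by edgeR). Hoxc8 lost it in 2 runs, and Hoxd8 and Hoxd9 in 1 each.

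Endothelium had a different balance of clusters. Of 18 rows tested in 6 libraries, 7 were higher in mesenchyme (38.9%), beside 15% of all genes. The 3 higher in endothelium were 16.7% of the rows, near the 14.3% of all genes. Those higher in mesenchyme were the 5 tested HoxC rows, Hoxc10 (3.42 ± 0.48), Hoxc9 (3.29 ± 0.41), Hoxc4 (2.52 ± 0.40), Hoxc6 (2.45 ± 0.36) and Hoxc8 (2.38 ± 0.29), and 2 HoxD rows, Hoxd10 (2.97 ± 0.36) and Hoxd9 (1.37 ± 0.26). Those higher in endothelium were Hoxb8 (-2.80 ± 0.57, adjusted p = 0.00296 by edgeR), Hoxb7 (-2.08 ± 0.43, adjusted p = 0.00361) and Hoxb4 (-0.96 ± 0.33, adjusted p = 0.0485). Hoxb8 had 9.46 to 25.9 CPM in endothelium, and 0.639, 1.87 and 28.5 CPM as its lowest, median and highest value in mesenchyme. Endothelium at E12.5, with 14 cells, is within this range but not in the test. The ranges overlap because of the E11.5 mesenchyme. Hoxb4 lost its call in 5 of the 6 runs without 1 library, with an adjusted p of 0.0857 to 0.146 by edgeR (0.146 without P1). The 4 tested HoxA rows, Hoxa3, Hoxa5, Hoxa7 and Hoxa9, differed by -0.37 to 0.26 and did not pass. The filter on low counts removed 22 rows, and a tested row could pass it through 1 class alone. The part of the erythroid and mesenchymal transcripts in endothelium (23.1 to 2422 CPM of the latter) was not tested.

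Germ cells were nearly free of the Hox genes that are abundant in the soma. Of 22 rows tested in 6 libraries, 21 were higher in mesenchyme and 0 lower, beside 29.4% and 27% of all genes (0 lower also at an unadjusted p under 0.05 by edgeR and by DESeq2). A row could pass the filter on low counts through mesenchyme alone, so these counts do not describe all members. Hoxa13 and Hoxc13, given below, were among the 18 rows not tested. Of the tested rows, Hoxb2 (6.91 ± 0.69), Hoxd10 (6.78 ± 0.40), Hoxc8 (6.53 ± 0.31) and Hoxc10 (6.32 ± 0.52) differed most. Hoxd8 and Hoxb9 were among the 21, but Hoxd8 lost its call without E12.5, E14.5 or P5 (adjusted p 0.0633 to 0.0842 by edgeR) and Hoxb9 without E14.5 or E16.5 (0.052 to 0.0531). Hoxc8 was at 0.263 to 1.10 CPM in germ cells from E12.5 on, which is 0.455% to 1.95% of its level in mesenchyme of the same library. Free RNA in the droplets can give UMIs at such low levels, and its part was not tested.

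A few members departed from this pattern. Hoxd8 in germ cells stood at 0.618 and 0.980 CPM in the E12.5 and E14.5 libraries, at 25.3 and 17.4 CPM in those of E16.5 and E18.5, at 6.56 CPM on P1 and at 0.731 CPM on P5. At E16.5 it was found with 443 UMIs in 36.8% of 777 germ cells (95% binomial interval 33.4% to 40.3%). Among the 717 with at least 2000 UMIs, thinned to 2000, it was found in 5.02%. The shares of mesenchymal and pregranulosa cells with Hoxd8 were 4.65% and 1.15% after the same thinning. At that age its level was 105% of that in mesenchyme, while the neighbouring Hoxd9 was at 1.63% and Hoxc8 at 1.26%. Hoxb9 followed later, at 2.74 CPM in the E16.5 library and 10.5 CPM in that of E18.5, then 11.8 CPM on P1 and 0 on P5. At P1 it was found in 19.7% of 178 germ cells. Hoxa4 was at 5.77 CPM in germ cells at E16.5 and 1.80 CPM in mesenchyme, and was the tested member that did not differ over the 6 libraries (0.13 ± 0.80, adjusted p = 0.902 by edgeR).

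Some members of group 13 were detected in germ cells and hardly elsewhere. Hoxa13, a gene of the distal limb and genital tubercle, was at 3.88 CPM in germ cells at E16.5, from 68 UMIs in 7.72% of the cells, and at 1.84 CPM at E18.5. In the same E16.5 library it had 0 UMIs in 2144 mesenchymal cells, where 3 UMIs would be 0.126 CPM, and 0 UMIs in 2724 pregranulosa cells, where 3 UMIs would be 0.0890 CPM. Hoxc13 was at 3.43 CPM in germ cells at E16.5 and listed at 0 in mesenchyme of that library. Both were removed by the filter on low counts. When the filter was lifted, Hoxa13 and Hoxc13 were the 2 rows higher in germ cells (log2 fold changes of mesenchyme over germ cells of -6.59 and -5.11, which depend on the prior count). Hoxd1 was at 3.08 CPM in germ cells at E16.5 and 0.0838 CPM in mesenchyme. The summed Hox level at E16.5 thus came to 55.3 CPM in germ cells, of which Hoxd8 was 25.3. The barcodes of that library stood apart, as given above, and the part of this in its germ-cell values was not tested.

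**Figure D5:**
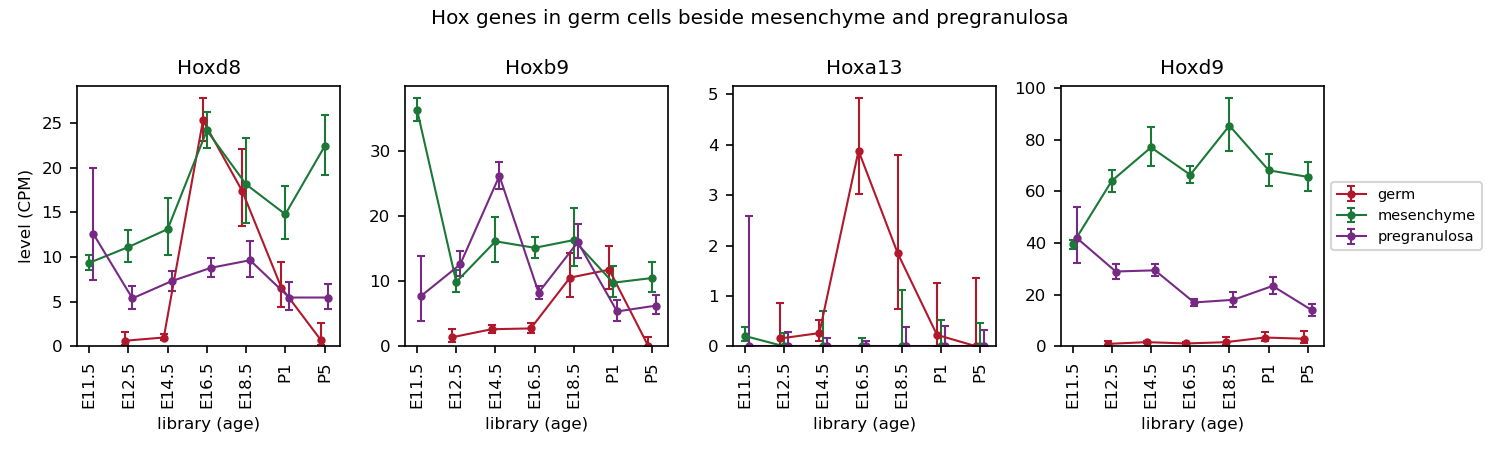
Level (CPM) of Hoxd8, Hoxb9, Hoxa13 and Hoxd9 in germ cells, mesenchyme and pregranulosa cells by library age, with 95% Poisson intervals; each panel has its own axis, and germ cells at E11.5 (9 cells) are not drawn. Germ-cell Hoxd8 was at 0.980 CPM at E14.5 and 25.3 CPM at E16.5, beside Hoxd9 at no more than 3.39 CPM.

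Within mesenchyme, cells with and without a UMI of Gata4, a zinc finger factor of the gonadal soma, were compared. In Gata4-positive cells 3 of 23 tested rows were lower, beside 0.495% of all genes, and 0 were higher, beside 0.0707% (1 at an unadjusted p under 0.05 by edgeR, 0 by DESeq2). Hoxb5 was lower by 1.33 on the log2 scale (SE 0.18), Hoxa10 by 1.30 (SE 0.22) and Hoxb4 by 1.21 (SE 0.15). Their adjusted p-values were 0.00586, 0.0192 and 0.00417 by edgeR. Hoxa10 was at 1.30 to 31.3 CPM in Gata4-positive and 3.65 to 87.4 CPM in Gata4-negative cells, and was lower in the Gata4-positive cells of each library. At an unadjusted p under 0.05, 15 of the 23 were lower. Hoxd9 differed by 0.42 ± 0.11 in the other direction and did not pass. Without E11.5 the count of lower rows was 5, including the 3, and without E14.5 Hoxa10 lost its call (adjusted p = 0.0723 by edgeR). Without E11.5 and E12.5 together it was again 3, of which Hoxb4 was shared. Gata4-positive cells were deeper, for example with a median of 12379 UMIs against 8824 at E12.5, and carried less of 6 pericyte markers (26.8 to 109 CPM, against 81.8 to 454 CPM, with none of the 6 at 0); the part of depth and of these cells was not tested.

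In pregranulosa cells with a UMI of Pax8, a factor of the kidney and genital ducts, 1 of 10 tested rows was higher and 0 lower, beside 3.97% and 3.96% of all genes. The filter on low counts removed 30 rows, so these counts do not describe all members. Hoxb9 differed by 0.93 ± 0.22 (adjusted p = 0.0136 by edgeR) over 6 libraries, with 3.85 to 51.7 CPM in Pax8-positive and 5.39 to 24.6 CPM in Pax8-negative cells over all 7. The count was 0 by DESeq2, without E12.5 and without E14.5, and at an unadjusted p under 0.05 by edgeR 1 row was lower and 2 were higher. At P5 18 Pax8-positive cells were too few to test. Summed HoxB was at 261, 186 and 69.2 CPM in Pax8-positive cells at E11.5, E12.5 and E14.5, and at 27.0 to 46.5 CPM later. In Pax8-negative cells it was at 87.4, 30.6 and 31.1 CPM, and at 22.9 to 25.3 CPM later. Summed HoxC was at 72.4 to 157 CPM in Pax8-positive and 84.0 to 128 CPM in Pax8-negative cells. These sums were not tested. Markers of the mesonephric tubule and duct moved with the gate: Cdh16 was at 8.37 to 42.5 CPM in Pax8-positive and 0 to 5.41 CPM in Pax8-negative cells, while Pax2, Lhx1 and Wnt9b were higher in Pax8-positive cells at E11.5 and E12.5 and were each at 0 there at P1 and P5. The 6 listed genes, Pax8 itself included, summed to 153 to 353 CPM and 1.97 to 46.0 CPM, and their part in the Hoxb9 value was not tested.

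Along age, Hox levels in mesenchyme fell in part of the clusters. A slope per step in the order of the 7 libraries was fitted, which has no replicate at any age. Of 28 rows tested, 8 fell and 0 rose, beside 2.34% and 3.81% of all genes (2 rose at an unadjusted p under 0.05 by edgeR and 0 by DESeq2). They were Hoxa10 (-0.78 ± 0.11 log2 per step), Hoxb8 (-0.76 ± 0.15), Hoxa9 (-0.56 ± 0.12), Hoxc10 (-0.49 ± 0.11), Hoxb7 (-0.45 ± 0.12), Hoxa7 (-0.45 ± 0.11), Hoxa5 (-0.44 ± 0.10) and Hoxc9 (-0.37 ± 0.09). Hoxc10 was at 159 CPM at E11.5, 32.0 at E12.5 and between 13.5 and 18.3 CPM from E14.5 on. Hoxa10 was at 82.0, 20.1, 9.19, 5.49, 3.02, 3.30 and 2.94 CPM from E11.5 to P5. The values show a drop before E14.5 and a flat course after it for Hoxc10, and a decline up to E18.5 for Hoxa10. Without E11.5 only Hoxa10 fell (-0.54 per step), without E12.5 3 of the 8 kept their call, without E18.5 or P5 3 of the 8 (the count was 4, with 1 other), without P1 4 of the 8 (the count was 5), and without E11.5 and E12.5 together it was 0. Without E16.5 Hoxd8 rose. Markers moved along age in the same cells: 2 of 6 mesenchymal markers rose (their sum was 916 CPM at E11.5 and 5468 to 7465 CPM from E16.5 on), and 3 of 6 erythroid genes rose and 1 fell (their sum was 2363 to 10236 CPM). The make-up of the class by Gata4 differed with age as well. Gata4-positive cells were 378 of 4080 at E11.5, 224 of 1351 at E12.5 and 240 of 885 at E14.5. They were 1227 of 2144 at E16.5, 197 of 454 at E18.5, 289 of 899 at P1 and 352 of 1179 at P5. The summed Hox level was 878 CPM at E11.5 and 384 CPM at P5 in Gata4-positive cells, and 1240 and 402 CPM in Gata4-negative cells. The part of the markers and of this make-up in the slopes was not tested. Hoxd8, Hoxd9 and Hoxd10 had slopes of 0.20 ± 0.07, 0.10 ± 0.07 and 0.15 ± 0.06 and did not pass. No slopes were simulated in mesenchyme, so how often slopes this small would be recovered there is not known. The missing calls do not show that these genes were flat.

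The E11.5 library had the largest share of cells with Y-linked UMIs. With cells that carried a Y-linked UMI left out, 7 of the 8 genes fell. In pregranulosa cells 1 of 18 tested rows fell, Hoxb6 (-0.70 ± 0.15 per step, adjusted p = 0.0411 by edgeR), and 0 rose, beside 1.39% and 2.11% of all genes, and Hoxb6 kept its call only without E14.5, with an adjusted p of 0.0524 to 0.302 without any of the 6 other libraries. In the epithelial class 1 of 13 fell, Hoxa5 (-1.01 ± 0.18, adjusted p = 0.0135), and 0 rose, beside 0.577% and 1.71%. Without E11.5, without E12.5 and without E16.5 Hoxa5 was not tested and the count was 0, and without P5 its adjusted p was 0.0611. At an unadjusted p under 0.05 by edgeR, and by DESeq2, 0 rows rose in either class. In simulated pregranulosa data, 2 of 198 slopes of 0.167 to 0.333 log2 per step were recovered. A row without a call in pregranulosa cells may thus still have a slope of that size, and the epithelial class was not simulated. The difference of slopes was tested directly. It was lower in mesenchyme than in pregranulosa cells for 1 of 26 rows, Hoxc10 (-0.40 ± 0.10, adjusted p = 0.0490 by edgeR), and higher for 0, beside 2.03% and 2.86% of all genes (5 higher at an unadjusted p under 0.05, and 2 by DESeq2). Hoxc10 in pregranulosa cells was between 4.14 and 10.5 CPM.

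Among the partners of Hox proteins, of 9 TALE cofactors tested, 5 were higher and 1 lower in mesenchyme than in pregranulosa cells, beside 26.6% and 26.9% of all genes. Meis2 (3.37 ± 0.16), Meis1 (2.22 ± 0.11) and Pknox2 (1.74 ± 0.30) led, and Pbx4 was lower by 0.98 (SE 0.30). Their summed level was 758 to 1628 CPM in mesenchyme, 238 to 505 CPM in pregranulosa cells and 68.3 to 259 CPM in germ cells. Against the epithelial class 7 of 9 were higher and 1 lower, beside 10.4% and 9.49% of all genes. Among the higher were Pknox2 (1.67 ± 0.37), Meis3 (1.55 ± 0.22) and Meis1 (1.28 ± 0.22), and Pbx4 was again the 1 lower (-1.96 ± 0.48). Meis2 was the 1 of 8 tested cofactors lower in Gata4-positive mesenchyme (-0.55 ± 0.10), beside 0.495% of all genes. It was also the 1 of 9 that fell with age in mesenchyme (-0.43 ± 0.06 per step), beside 2.34% of all genes.

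Of 24 tested Polycomb, Trithorax and retinoic acid genes, which regulate the clusters, 7 were higher and 7 lower in mesenchyme than in pregranulosa cells, shares near the 26.6% and 26.9% of all genes. The retinoic acid receptors Rarb (4.67 ± 0.28) and Rarg (3.01 ± 0.18) differed most, followed by Cbx7 (-1.50 ± 0.37), a Polycomb reader that was higher in pregranulosa cells, and Ezh2 (1.39 ± 0.11), the Polycomb methyltransferase. Of 23 tested against the epithelial class, 2 were higher, Rarb (1.03 ± 0.30) and Rarg (0.90 ± 0.28), and 1 was lower. These are no more than the shares of 10.4% and 9.49% of all genes. Of the 7 noncoding RNAs of the clusters in the files, 3 were tested against pregranulosa cells and 3 were higher in mesenchyme, beside 26.6% of all genes: Hoxaas3 (3.85 ± 0.36), Hoxb3os (3.50 ± 0.43) and Hotairm1 (3.35 ± 0.55). The other 4 were removed by the filter on low counts, which a gene could pass through mesenchyme alone. All lie within the clusters, and Hotairm1 runs antisense to HoxA genes. Of 7 tested genes that flank the clusters, 4 were higher and 2 lower, beside 26.6% and 26.9% of all genes. Lnpk, which lies next to HoxD, was higher by 1.18 ± 0.12 and Skap2, which lies next to HoxA, by 1.14 ± 0.13, while Hibadh (-0.99 ± 0.10) and Calcoco1 (-0.69 ± 0.11) were lower. The summed level of the flanking genes was 350 to 625 CPM in mesenchyme and 375 to 579 CPM in pregranulosa cells, ranges that overlap.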

How the data were processed

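Per the labels and the study's methods, single-cell libraries from 7 ages were prepared with droplet chemistry (10x v2). The authors made the deposited UMI counts with Cell Ranger 3.1.0 on mm10. The barcodes of the E16.5 library stood apart, as given above, and whether its chemistry differed was not tested. The deposited counts were whole numbers per gene and barcode. Cells with at least 200 genes were kept, and gates were set at 1 UMI, or 2 UMIs for Nr2f2. Doublets were not called. Cells of 2 or more gates were left out, as were classes under 20 cells in a library. UMIs were summed per class and library, scaled by TMM, filtered with filterByExpr and tested with edgeR 4.0.16 in R 4.3.3 (quasi-likelihood, Benjamini-Hochberg threshold 0.05). Gate genes, Gata4 and Pax8 were left out of the tests. Each SE of a log2 fold change or slope was derived from the edgeR test. It is the absolute value of the change over the square root of the F statistic, so it restates the test. DESeq2 1.42.0 was an alternative. The test scripts were checked on simulated data with known changes. For mesenchyme against pregranulosa cells, 155 of 198 changes of 1 to 2 log2 were recovered, with 8 false calls. For age in pregranulosa cells, 160 of 198 slopes of 0.5 to 1 log2 per step were recovered, with 4 false calls. Of 198 slopes of 0.167 to 0.333, only 2 were recovered, with 2 false calls. Total depth per library was 31960736 to 124390521 UMIs. Intervals (95%, exact) and floors of 3 UMIs cover counting error only. Each age is 1 pooled library, so p-values measure the spread between libraries of different age. The members, gates and lists were chosen with earlier results of these data known. Named were the leading member of each paralogue number in mesenchyme, up to 12 called members per comparison and up to 4 called genes of each other list. The germ-cell genes Hoxd8, Hoxb9, Hoxa4, Hoxa13, Hoxc13 and Hoxd1 were singled out after their values were seen. Leaving out cells with Y-linked UMIs, and E11.5 with E12.5, were alternatives chosen after seeing the data. A few genes that these rules name are not reported here.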

Additional observations from a re-analysis of the deposited data

Results flagged for a closer look

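The slope of Hoxc10 over the 7 ages differed between mesenchyme and pregranulosa cells by -0.40 log2 per step, a difference of 2 groups' effects that was tested itself (edgeR, adjusted p = 0.0490, 7 libraries). Hoxc10 was at 159 CPM in mesenchyme at E11.5 and 13.5 to 32.0 CPM at the later ages, beside 4.14 to 10.5 CPM in pregranulosa cells. The call was lost without E11.5, without E12.5, without E18.5, without P1 and without P5.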

How the results depend on the processing

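Counts are of Hox rows called, and the cause of each change was not tested. The number of rows tested and the share of all genes called can change with each run and are not given. The counts thus show only how far the calls depend on the setting, and are not results about Hox genes beside other genes. Leaving out 1 library at a time gave 22 to 24 rows higher in mesenchyme than in pregranulosa cells, 3 to 6 higher than in the epithelial class, 7 to 9 higher and 2 to 4 lower than in endothelium and 19 to 23 higher than in germ cells. It gave 4 to 9 rows lower in pregranulosa cells than in the epithelial class, 2 to 5 lower in Gata4-positive cells, and 0 to 2 higher and 0 to 1 lower in Pax8-positive cells. With age, 1 to 10 rows fell and 0 to 1 rose in mesenchyme, 0 to 3 fell in pregranulosa cells, 0 to 2 fell in the epithelial class, and 0 to 2 had a lower slope in mesenchyme.

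With no filter on low counts, 11 rows were higher in mesenchyme than in the epithelial class, 14 lower in pregranulosa cells than in that class, 11 higher in mesenchyme than in endothelium, 2 lower than in germ cells, 1 higher and 14 lower in Gata4-positive cells, and 8 higher and 1 lower in Pax8-positive cells, and 15, 5 and 9 fell with age in mesenchyme, pregranulosa cells and the epithelial class. With cells of 2 or more gates counted in each class, the values were 12 higher and 1 lower against the epithelial class, 17 lower in pregranulosa cells than there, 12 higher than in endothelium, 1 higher and 10 lower with Gata4, 4 higher with Pax8, 6 and 9 falling in pregranulosa cells and the epithelial class, and 4 with a higher slope in mesenchyme. With every gate raised by 1 UMI they were 5 lower with Gata4, 0 higher with Pax8, 4 falling in the epithelial class, and 1 higher and 0 lower slopes. By DESeq2 they were 0 higher with Pax8, 3 and 2 falling in pregranulosa cells and the epithelial class, and 2 higher and 3 lower slopes. With cells under 1000 genes or over 10% mitochondrial UMIs removed they were 2 higher with Pax8, 0 falling in pregranulosa cells, and 2 higher and 0 lower slopes. Over the 5 libraries before birth, by embryonic day, 2 fell in the epithelial class, with 1 higher and 0 lower slopes, and without the 5% of cells with most UMIs 0 fell in that class. With cells carrying Y-linked UMIs left out, 6 were lower with Gata4, 2 higher and 1 lower with Pax8, 2 fell in pregranulosa cells, and 2 slopes were higher and 0 lower. Without E11.5 and E12.5, 2 were lower in pregranulosa cells than in the epithelial class, 1 higher with Gata4, 1 lower with Pax8, and 0 fell in mesenchyme, 0 in pregranulosa cells and 0 in the epithelial class, with 0 lower slopes. There the slope of Hoxb7 in mesenchyme turned to 0.04 (edgeR, adjusted p = 0.987). The mean summed levels moved by less than their SD over libraries under each alternative run. That SD holds the differences between ages, and leaving out 1 or 2 libraries could not move a mean that far. Without 1 library the mean was 470 to 614 CPM in mesenchyme and 170 to 210 CPM in pregranulosa cells. It was 317 to 451 CPM in the epithelial class, 267 to 290 CPM in endothelium and 23.8 to 31.5 CPM in germ cells. No paired analysis was possible beyond the library block already in the class tests, because each age has 1 library.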
